A study of Mus musculus with 4 samples.

Results

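The unfolded protein response was examined in mouse liver through 10 genes that encode chaperones, folding factors and degradation factors of the endoplasmic reticulum (ER), namely Hspa5, Xbp1, Sdf2l1, Creld2, Hyou1, Derl3, Dnajb9, Herpud1, Pdia4 and Manf. They were chosen by gene symbol, and all 10 were found among the 25655 genes of the deposited table. ADAR2+/+/GluR-BR/R mice (HFD-WT) and ADAR2-/-/GluR-BR/R mice (HFD-KO) had been fed a high-fat diet (HFD) for 12 weeks from 5 weeks of age, and liver RNA had been sequenced in 2 libraries per group. Both groups carried the GluR-B R allele, which encodes the edited form of a glutamate receptor subunit and lets mice without the RNA-editing enzyme ADAR2 survive, and both had received the HFD, so the comparison addresses the genotype under the HFD alone. According to the study's methods the mice came from intercrosses on a B6129S background. Males were used. The study names more mice per group for the sequenced comparison than there are libraries, and which livers went into which library is not given in the sources used here.

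Proteins that enter the secretory pathway fold inside the ER, and hepatocytes, which secrete most plasma proteins, carry a large load of them. When unfolded proteins accumulate, the sensors IRE1, PERK and ATF6 are released from the chaperone BiP and signal to the nucleus. ATF6 is cut in the Golgi to yield a transcription factor, IRE1 splices the Xbp1 mRNA so that it encodes another, and PERK slows translation while ATF4 is made. The factors made through ATF6 and IRE1 bind ER stress elements in promoters and raise the transcription of chaperones and of ER-associated degradation (ERAD), which returns misfolded proteins to the cytosol. In liver this response is known to vary with feeding, time of day and lipid load.

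The total count was between 24480798 and 28691330 per library, at which 3 counts correspond to between 0.105 and 0.123 CPM, the counts scaled to a common library total, a limit that covers counting error only. Values below are CPM on library sizes scaled by the trimmed mean of M values (TMM) unless stated otherwise. Adarb1, which encodes ADAR2, had 15.7 and 19.8 CPM (HFD-WT) against 6.23 and 9.55 CPM (HFD-KO), a log2 fold change of -1.17 with a standard error (SE) of 0.20 (edgeR adjusted p = 0.159), so its mRNA was counted in both HFD-KO libraries. The HFD-KO libraries differed from each other more than the HFD-WT libraries did, a chi-square of 41.0 against 10.3 for each degree of freedom over the genes. Hepatocyte markers were high in all 4 libraries, and their sum was highest in HFD-KO 2. Over 18 genes it was 140067 CPM there and between 117366 and 120567 CPM in the other libraries. Alb, the gene of albumin, had 66104 CPM in HFD-KO 2 and between 52676 and 54900 CPM elsewhere. Cyp2e1, the next most abundant, did not share this, with 10460 and 8738 CPM (HFD-WT) against 10697 and 9318 CPM (HFD-KO). HFD-KO 2 was the highest library for 12 of the 18 genes, beside 29.3% of all genes tested. The 10 genes and the count over the rest of the pathway are therefore given with and without HFD-KO 2. Of the other genes named, so are Syvn1, Pdia5, Trib3, Igfbp1 and Irs2, but not every gene that was highest in HFD-KO 2.

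The promoters are shown because the mRNAs of these genes varied together between libraries, as described further on. Of the 10 genes, 8 were matched by symbol to the RefSeq promoter table of build GRCm38.p6, which holds 250 bases before and 50 bases after an annotated start of transcription. Hyou1 and Manf had no entry. The windows were searched on both strands for the ER stress element ERSE, which is CCAAT, 9 bases of any kind and CCACG, for ERSE-II, which is ATTGG, 1 base of any kind and CCACG, and for the core of the unfolded protein response element UPRE, spelled TGACGTG. The 5 bases CCACG close both ERSE and ERSE-II and were also searched alone as a short element, so each ERSE or ERSE-II match contains a short element match. The 250 bases upstream of the start are shown for Hspa5, Creld2, Derl3 and Herpud1, which hold a whole element, and for Sdf2l1, which had the next largest difference between the groups after Derl3. Each runs 5′ to 3′ on the strand of the gene, and capitals mark ERSE, ERSE-II and UPRE core matches.
Hspa5 (chr2:34771840-34772089, plus strand, ERSE and UPRE core): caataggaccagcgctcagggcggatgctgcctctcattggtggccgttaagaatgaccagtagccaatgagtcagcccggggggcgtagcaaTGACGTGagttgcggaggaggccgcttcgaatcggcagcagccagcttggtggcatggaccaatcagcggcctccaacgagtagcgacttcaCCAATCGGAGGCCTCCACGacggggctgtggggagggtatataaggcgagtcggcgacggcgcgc
Creld2 (chr15:88819396-88819645, plus strand, ERSE on the reverse strand): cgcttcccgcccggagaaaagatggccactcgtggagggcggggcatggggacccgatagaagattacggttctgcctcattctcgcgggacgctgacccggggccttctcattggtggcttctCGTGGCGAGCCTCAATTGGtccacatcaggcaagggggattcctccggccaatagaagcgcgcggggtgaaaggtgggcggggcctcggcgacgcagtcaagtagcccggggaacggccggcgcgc
Derl3 (chr10:75893148-75893397, plus strand, ERSE on the reverse strand): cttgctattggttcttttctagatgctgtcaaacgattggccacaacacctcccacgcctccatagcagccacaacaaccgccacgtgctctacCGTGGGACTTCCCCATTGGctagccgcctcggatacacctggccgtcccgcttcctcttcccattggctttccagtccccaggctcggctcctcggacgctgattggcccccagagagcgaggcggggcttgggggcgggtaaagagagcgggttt
Herpud1 (chr8:94386179-94386428, plus strand, ERSE-II): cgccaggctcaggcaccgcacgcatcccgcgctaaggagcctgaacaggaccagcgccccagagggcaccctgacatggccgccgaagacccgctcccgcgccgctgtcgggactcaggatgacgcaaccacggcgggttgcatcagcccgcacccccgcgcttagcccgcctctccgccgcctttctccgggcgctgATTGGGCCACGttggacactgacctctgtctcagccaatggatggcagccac
Sdf2l1 (chr16:17132384-17132633, minus strand, no whole element): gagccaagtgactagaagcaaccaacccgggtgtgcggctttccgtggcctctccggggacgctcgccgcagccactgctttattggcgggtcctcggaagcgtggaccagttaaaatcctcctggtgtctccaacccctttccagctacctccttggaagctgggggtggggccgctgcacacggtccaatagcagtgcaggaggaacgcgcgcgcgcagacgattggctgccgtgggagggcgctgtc

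ERSE was found in the windows of Hspa5, Creld2 and Derl3, 3 of 8 genes, and in 39 of all 32851 windows (0.119%). The match began 65 bases before the start in Hspa5, 126 bases before it in Creld2 and 156 bases before it in Derl3. In Creld2 and Derl3 it lay on the reverse strand, where the printed capitals read as its reverse complement. ERSE-II was found only in Herpud1 among the 8 genes, 52 bases before the start, and in 12 windows of the whole table (0.0365%). The UPRE core was found in Hspa5 alone of the 8, against 2.01% of all windows. Short elements were found in 7 of the 8 windows, with Xbp1 as the exception, and in 32.8% of all windows. In Pdia4 the short element lay downstream of the start. Related genes, listed further on, also had matches. Among 40 windows of other ER folding factors, 6 held ERSE, 2 ERSE-II, 3 the UPRE core and 60.0% a short element. Among 25 windows of ERAD genes, 1 held ERSE, 0 ERSE-II, 2 the UPRE core and 60.0% a short element. A match is a run of letters and does not show that a factor binds there, and a window without one says only that these letters are not in it.

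**Figure D1:**
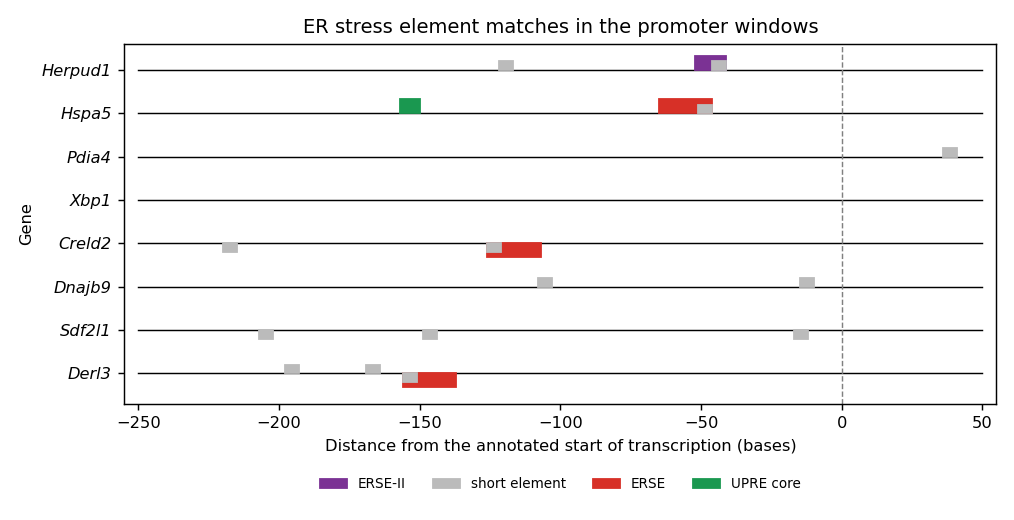
Positions of ERSE, ERSE-II, UPRE core and short element matches in the promoter windows of 8 genes, with the distance from the annotated start of transcription in bases on the x axis and 1 line per gene on the y axis. Boxes above a line lie on the strand of the gene and boxes below it on the reverse strand; whole ERSE matches are seen in Hspa5, Creld2 and Derl3 and an ERSE-II match in Herpud1.

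Levels of the 10 genes spanned a wide range. On the length-corrected scale of the deposited TPM values, which share out each library over transcripts, the mean over the 4 libraries ran from 583 TPM for Herpud1 and 374 TPM for Hspa5 through 161 TPM for Pdia4 and 109 TPM for Xbp1 to 64.3 TPM for Hyou1, 63.7 TPM for Creld2 and 61.5 TPM for Manf. Below them stood Dnajb9 with 46.6 TPM, Sdf2l1 with 25.7 TPM and Derl3 with 4.72 TPM. The ranges over the libraries of Herpud1 and Hspa5 overlapped, as did those of each pair of neighbours from Hyou1 to Sdf2l1, while those of Hspa5 and Pdia4, Pdia4 and Xbp1, Xbp1 and Hyou1, and Sdf2l1 and Derl3 did not overlap. Herpud1 was nonetheless above Hspa5 in 4 of 4 libraries. Hyou1, Creld2 and Manf had no stable order, since Creld2 was above Manf in 1 of 4 libraries.

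Xbp1, the transcription factor gene whose mRNA is spliced by IRE1 (ENSMUSG00000020484, chromosome 11 from 5470659 to 5475893 on GRCm39), had 146 and 131 CPM (HFD-WT) against 142 and 177 CPM (HFD-KO). HFD-KO 2 was the highest and HFD-KO 1 lay between the HFD-WT values, so the groups overlapped. HFD-KO exceeded HFD-WT by 0.20 on the log2 scale, the log2 fold change (SE 0.12, edgeR adjusted p = 0.669). Counts per gene add spliced and unspliced Xbp1 mRNA together, so they do not show how much of it was spliced.

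Hspa5, which encodes BiP, the main Hsp70 chaperone of the ER and the brake on its sensors (ENSMUSG00000026864, chromosome 2 from 34661982 to 34667559), had 578 and 699 CPM (HFD-WT) against 609 and 964 CPM (HFD-KO). The HFD-KO 1 value again lay between the HFD-WT values and HFD-KO 2 exceeded all others. The log2 fold change was 0.30 (SE 0.21, 95% interval -0.18 to 0.78, edgeR adjusted p = 0.710). Hspa5 is the gene with both an ERSE and a UPRE core in the sequence printed above.

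The BiP partners Hyou1 and Dnajb9 were highest in HFD-KO 2. Hyou1, a large Hsp70-related protein that exchanges the nucleotide of BiP (ENSMUSG00000032115, chromosome 9 from 44290787 to 44303666), had 115 and 155 CPM (HFD-WT) against 137 and 215 CPM (HFD-KO). Its groups overlapped (log2 fold change 0.38 with an SE of 0.22, edgeR adjusted p = 0.662). Dnajb9, a J-domain co-chaperone that brings BiP to IRE1 (ENSMUSG00000014905, chromosome 12 from 44252342 to 44257109), had 52.0 and 64.1 CPM (HFD-WT) against 51.5 and 72.8 CPM (HFD-KO). HFD-KO 1 was here the lowest and HFD-KO 2 the highest of the 4 libraries (log2 fold change 0.10 with an SE of 0.17, edgeR adjusted p = 0.898).

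Sdf2l1, a small protein that joins the J-domain protein Dnajb11 in keeping unfolded proteins soluble (ENSMUSG00000022769, chromosome 16 from 16948002 to 16950247), had 8.91 and 11.9 CPM (HFD-WT) against 13.5 and 23.7 CPM (HFD-KO). Both HFD-KO values were above both HFD-WT values. Its log2 fold change was 0.83 (SE 0.26, 95% interval 0.23 to 1.44, unadjusted p = 0.0136, edgeR adjusted p = 0.416), a ratio of 1.78.

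The oxidoreductases differed in how far the groups were apart. Pdia4, a protein disulfide isomerase (ENSMUSG00000025823, chromosome 6 from 47773075 to 47790364), had 160 and 181 CPM (HFD-WT) against 193 and 252 CPM (HFD-KO). The groups did not overlap (log2 fold change 0.39 with an SE of 0.14, unadjusted p = 0.0234, edgeR adjusted p = 0.473). Creld2, a cysteine-rich ER protein with isomerase-like activity (ENSMUSG00000023272, chromosome 15 from 88703849 to 88710886), had 30.9 and 41.8 CPM (HFD-WT) against 32.6 and 71.2 CPM (HFD-KO). HFD-KO 2 had 2.19 times the level of HFD-KO 1, which lay between the HFD-WT values (log2 fold change 0.51 with an SE of 0.32, edgeR adjusted p = 0.692).

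Manf, a secreted factor that also binds BiP inside the ER (ENSMUSG00000032575, chromosome 9 from 106715511 to 106769178), had 74.4 and 88.6 CPM (HFD-WT) against 82.5 and 114 CPM (HFD-KO), and the groups overlapped (log2 fold change 0.27 with an SE of 0.16, edgeR adjusted p = 0.668). Its listed span overlaps that of Rbm15b on the same strand and of Dcaf1 on the opposite strand, which had between 404 and 488 and between 576 and 774 counts per library. How reads in the shared stretches were assigned is not given in the sources used here, so the count of Manf, between 2155 and 2732 per library, is less certain than the others.

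Of the genes of ERAD, Herpud1, an ER membrane protein that organises the degradation complex (ENSMUSG00000031770, chromosome 8 from 95113066 to 95122005), had 535 and 675 CPM (HFD-WT) against 520 and 710 CPM (HFD-KO). It had the highest TPM of the 10 genes, though not the highest CPM, and the log2 fold change nearest to 0 (0.02, SE 0.17, 95% interval -0.37 to 0.42, edgeR adjusted p = 0.978). Derl3, a derlin of the ER membrane that is most abundant in professional secretory cells (ENSMUSG00000009092, chromosome 10 from 75729247 to 75731775), had 1.17 and 1.82 CPM (HFD-WT) against 2.39 and 7.33 CPM (HFD-KO). These rest on 34, 50, 63 and 175 counts. The groups did not overlap, and the log2 fold change of 1.69 (SE 0.52, 95% interval 0.48 to 2.90, unadjusted p = 0.0126, edgeR adjusted p = 0.409) was the largest of the 10. HFD-KO 2 alone had 3.06 times the level of HFD-KO 1. Adarb1, the gene targeted in HFD-KO, lies on the same chromosome as Derl3, from 77126560 to 77254104. On the B6129S background, the part of alleles linked to Adarb1 in the Derl3 values was not tested.

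**Figure D2:**
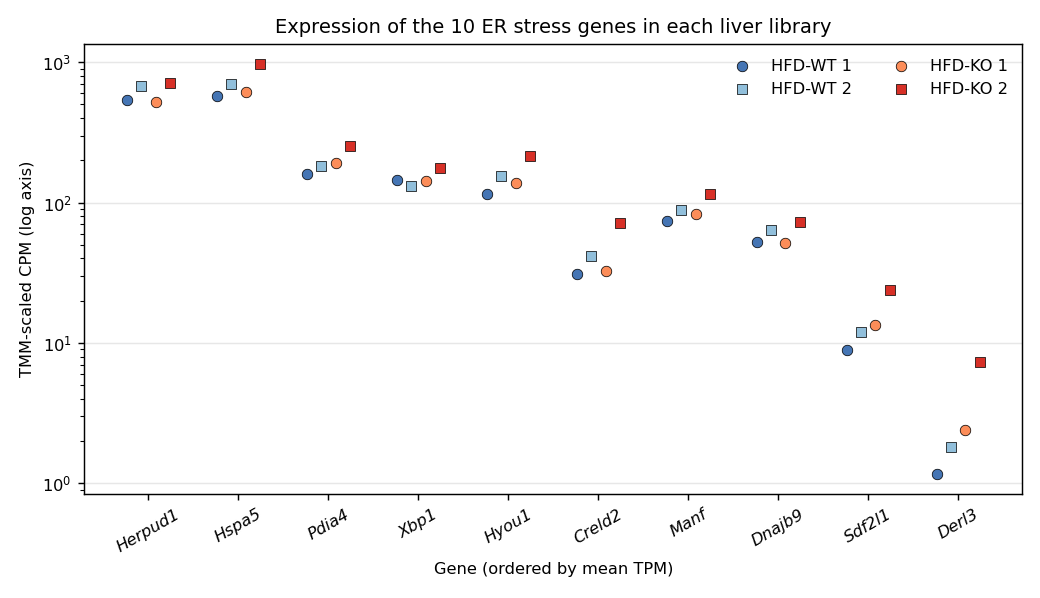
TMM-scaled CPM on a log axis for the 10 genes, ordered by mean TPM, with 1 point for each of the 4 liver libraries (circles for replicate 1, squares for replicate 2). HFD-KO 2 is the highest point of every gene, from 1.05 times the next library in Herpud1 to 3.06 times in Derl3.

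In the comparison of genotypes, 0 of the 10 genes passed an adjusted p of 0.05 by edgeR, beside 0.0771% of the 12967 genes tested, and 0 passed with the Wald test of DESeq2, beside 0.887%. At an unadjusted p under 0.05, Sdf2l1, Derl3 and Pdia4 were higher in HFD-KO livers, 3 of 10, beside 4.25% of all genes tested, and these were also the 3 genes past it with DESeq2, beside 2.3%. Creld2 and Hyou1 joined them with no filter on low counts, beside 4.03% of all genes. In the same 3 genes both HFD-KO libraries were above both HFD-WT libraries, beside 20.5% of all genes. The log2 fold change was above 0 in 10 of 10 genes, beside 51.6% of all genes. Its median was 0.34 over the 10 genes and 0.01 over all genes tested. With 2 libraries against 2, an exact permutation test of 1 gene cannot give a p below 0.333, so these p-values rest on the variance that edgeR shares across genes. Since the 10 genes were chosen with earlier results of these libraries known, the counts describe them and are no independent support for a direction.

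The comparison turned on which HFD-KO library was used. Without HFD-KO 2, the median log2 fold change of the 10 genes was 0.021, and 0 genes passed the adjusted threshold and 1 the unadjusted one (Sdf2l1), beside 1.69% and 5.77% of all genes that were higher. The values of Hspa5, Creld2, Dnajb9 and Herpud1 were then below 0, with -0.068, -0.16, -0.17 and -0.22. In each such fit the lone library was assumed to vary like the pair of the other group. Without HFD-KO 1, the median was 0.58 and 8 genes passed the adjusted threshold, all but Dnajb9 and Herpud1, beside 2.83% of all genes, and 10 the unadjusted one, beside 8.25%. Sdf2l1, Derl3 and Pdia4 stayed above 0 without each library in turn, between 0.38 and 1.19, between 0.68 and 2.29, and between 0.18 and 0.57. Xbp1, Hyou1 and Manf did so too but came close to 0, between 0.034 and 0.36, between 0.024 and 0.67, and between 0.018 and 0.49. Without HFD-WT 1 and without HFD-WT 2, 0 and 4 genes passed the unadjusted threshold, beside 2.85% and 1.92% of all genes. With 1 library against 2, the groups did not overlap for 5 of the 10 genes without HFD-KO 2, 3 higher and 2 lower, beside 72.1% of all genes in either direction. They did not overlap for 10 genes without HFD-KO 1, 4 without HFD-WT 1 and 7 without HFD-WT 2, all higher, beside 76.1%, 69.3% and 63.5% of all genes. With the replicate number as a block, 0 genes passed the adjusted and 6 the unadjusted threshold, beside 3.62% of all genes.

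**Figure D3:**
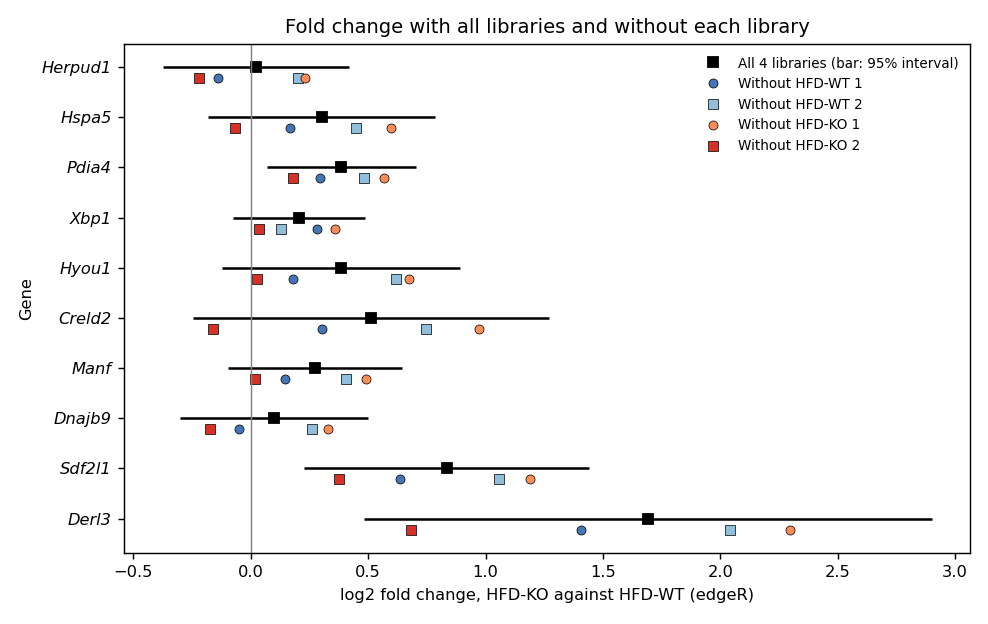
Log2 fold change by edgeR, above 0 where HFD-KO is higher, on the x axis for each of the 10 genes, with all 4 libraries (black squares, bars for the 95% interval) and without each library in turn (coloured points). The values without HFD-KO 2 (red squares) lie lowest for every gene, and those of Hspa5, Creld2, Dnajb9 and Herpud1 fall below 0.

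Across libraries the 10 genes moved largely as 1 block. HFD-KO 2 was the highest library for 10 of 10 genes, beside 29.3% of all genes tested. Replicate 2 exceeded replicate 1 in both groups for 9 of 10 genes, all but Xbp1, beside 23% of all genes. Averaged over the 10 genes, the deviation from a gene's own mean log2 CPM was -0.37 in HFD-WT 1, -0.06 in HFD-WT 2, -0.13 in HFD-KO 1 and 0.56 in HFD-KO 2. HFD-KO 1 was thus not set apart from HFD-WT: it lay above both HFD-WT values for 3 genes, between them for 5 and below both for 2. The difference between the HFD-KO libraries had a median of 0.57 on the log2 scale over the 10 genes, beside a median difference of 0.34 between the groups. These are unlike measures, since the former compares single libraries and the latter compares groups of 2 and includes HFD-KO 2. Over all genes tested, the median of HFD-KO 2 against HFD-KO 1 was -0.0043 and its median absolute value was 0.153. These counts were made after the values had been seen.

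**Figure D4:**
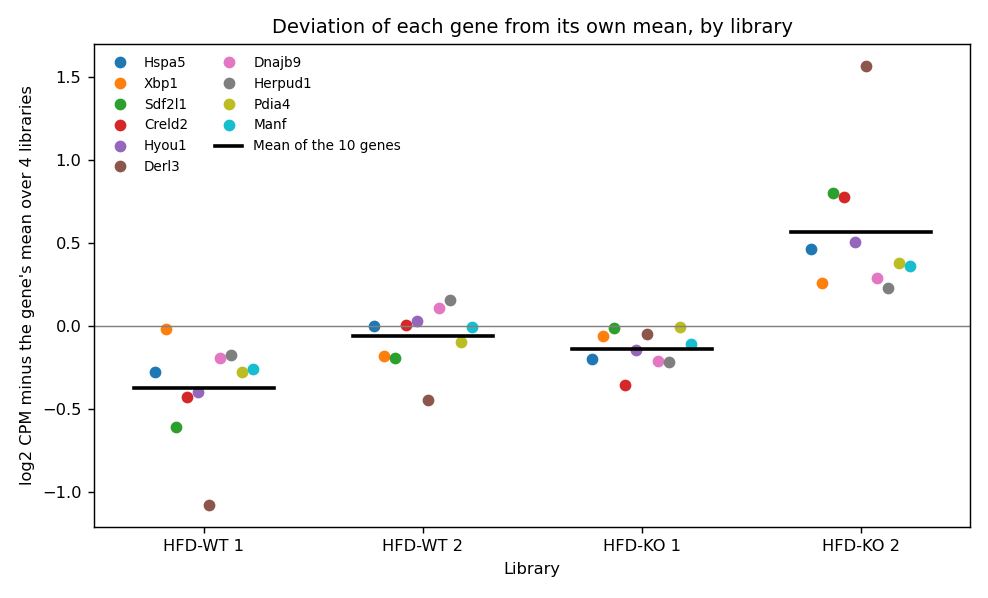
Log2 CPM of each gene minus its mean over the 4 libraries (y axis) in each library (x axis), with 1 coloured point per gene and a black line for the mean of the 10 genes. All 10 points lie above 0 in HFD-KO 2, and the means are -0.37, -0.06, -0.13 and 0.56 from left to right.

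The tested genes with a mean of at least 10 CPM whose deviations over the 4 libraries came closest to this mean profile were Syvn1, Btg2, Klf10, Lbh and Abca8a, at Euclidean distances from 0.079 to 0.19 log2 units among 7613 genes. With 4 libraries this is a description only. Syvn1, the ubiquitin ligase at the centre of ERAD, was the nearest, with 73.6 and 95.03 CPM (HFD-WT) against 85.0 and 147 CPM (HFD-KO), a log2 fold change of 0.46 with an SE of 0.24 (edgeR adjusted p = 0.633). Without HFD-KO 2 its log2 fold change was 0.01 (SE 0.11). Btg2 and Klf10 are immediate-early genes. Of the 10 genes, Hyou1 lay nearest to their mean profile, at 0.11, and Derl3 farthest, at 1.29, with larger deviations in the same direction in HFD-WT 1 and HFD-KO 2.

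The rest of the pathway was compared through lists of the sensors and regulators of the response, of other ER folding factors, of ERAD and of import and early transport. Together, 116 of their 118 genes were tested, of which 0 passed an adjusted p of 0.05 and 5 an unadjusted p under 0.05 by edgeR, 2 higher and 3 lower in HFD-KO livers. This is 4.31%, beside 8.98% of all genes tested, and 2 genes passed the unadjusted threshold with DESeq2. The median log2 fold change was 0.05. Without HFD-KO 2, 4 genes had an unadjusted p under 0.05, 2 higher and 2 lower, beside 11.4% of all genes. HFD-KO 2 was the highest library for 57 of the 116 genes, beside 29.3% of all genes tested.

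Among the sensors and regulators, 0 of 13 genes had an unadjusted p under 0.05, and their log2 fold changes lay between -0.13 and 0.15. Ern1, which encodes IRE1, had 52.7 and 49.3 CPM (HFD-WT) against 50.1 and 60.5 CPM (HFD-KO). Atf6 had 78.2 and 82.5 against 75.4 and 91.6 CPM, and Eif2ak3, which encodes PERK, 20.5 and 22.5 against 19.4 and 23.6 CPM. In all 3 sensors HFD-KO 2 was the highest library and the groups overlapped. These 3 were singled out after their values were seen. The 2 most abundant genes of the list were Tmbim6, an ER membrane protein that restrains cell death, with a log2 fold change of -0.06 (SE 0.099), and Creb3l3, a liver transcription factor activated like ATF6, with 0.07 (SE 0.088).

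Of 35 other folding factors tested, 27 had a log2 fold change above 0, with a median of 0.07 and a range from -0.61 to 0.56. Pdia5, a protein disulfide isomerase, had 29.4 and 29.9 CPM (HFD-WT) against 38.6 and 48.7 CPM (HFD-KO), a log2 fold change of 0.56 with an SE of 0.12 (unadjusted p = 0.00193, edgeR adjusted p = 0.233). Its log2 fold change without HFD-KO 2 was 0.38 (SE 0.11). Fkbp7, an ER prolyl isomerase with low counts, went the other way, with 3.56 and 3.45 against 2.77 and 1.80 CPM (log2 fold change -0.61 with an SE of 0.26, edgeR unadjusted p = 0.0497). These were the 2 genes of the list past the unadjusted threshold. Hsp90b1, the Hsp90 chaperone of the ER, had 519 and 561 against 560 and 677 CPM (log2 fold change 0.19 with an SE of 0.11). Calr and Pdia3, which fold glycoproteins together, had log2 fold changes of 0.12 and 0.15, and in both HFD-KO 1 was slightly above HFD-KO 2. Over the list, HFD-KO 2 was the highest library for 20 of 35 genes.

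Of 29 ERAD genes tested, only Erlec1, a lectin that brings glycoproteins to degradation, had an unadjusted p under 0.05, with 26.7 and 25.6 CPM (HFD-WT) against 21.3 and 21.5 CPM (HFD-KO), a log2 fold change of -0.29 with an SE of 0.081 (unadjusted p = 0.00851, edgeR adjusted p = 0.369). The derlins Derl1 and Derl2 had 106 and 115 against 111 and 129 CPM and 69.4 and 66.3 against 73.8 and 73.8 CPM, so they had far more reads than Derl3 and log2 fold changes of 0.11 and 0.12. Of 39 import and transport genes, Tram1, a translocon-associated protein, had a log2 fold change of 0.21 (SE 0.087, unadjusted p = 0.0425) and Sec24d, a coat protein of vesicles that leave the ER, one of -0.22 (SE 0.080, edgeR unadjusted p = 0.0277).

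**Figure D5:**
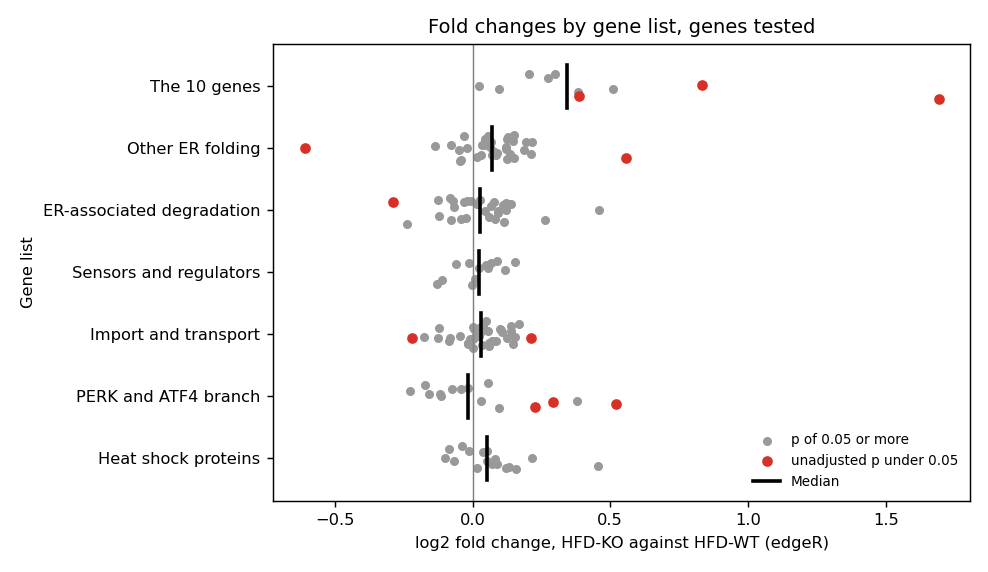
Log2 fold change by edgeR, above 0 where HFD-KO is higher (x axis), for the tested genes of each list (y axis), with 1 point per gene, red for an unadjusted p under 0.05, and a black line for the median. The median of the 10 genes is 0.34, and those of the other lists lie between -0.02 and 0.07.

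In the branch of PERK and ATF4, 3 of 15 genes tested had an unadjusted p under 0.05 by edgeR, all higher in HFD-KO livers, beside 4.25% of all genes. Trib3, a pseudokinase induced by ATF4, had 15.5 and 14.7 CPM (HFD-WT) against 17.5 and 25.9 CPM (HFD-KO), a log2 fold change of 0.52 with an SE of 0.17 (edgeR adjusted p = 0.445). Without HFD-KO 2 the log2 fold change of Trib3 was 0.21 (SE 0.13). HFD-KO 2 was the highest library for 10 of the 15 genes, with a median of 0.53 on the log2 scale against HFD-KO 1, beside 0.57 for the 10 chaperone genes. The other genes past the unadjusted threshold were Atf4 itself and Ppp1r15a, which restores translation. Atf4 had 76.1 and 72.7 CPM (HFD-WT) against 88.8 and 85.3 CPM (HFD-KO), a log2 fold change of 0.23 (edgeR unadjusted p = 0.0234). Ppp1r15a had 12.6 and 14.4 against 15.7 and 17.3 CPM, a log2 fold change of 0.29 (edgeR unadjusted p = 0.0331). The median log2 fold change of the branch was -0.02, with 8 of the 15 below 0. Of 17 heat shock genes outside the ER, 0 had an unadjusted p under 0.05, with a median log2 fold change of 0.05. HFD-KO 2 was their highest library in 11 of 17, and replicate 2 exceeded replicate 1 in both groups in 12 of 17, beside 29.3% and 23% of all genes. The most abundant of them, the Hsp70 and Hsp90 chaperones Hspa8 and Hsp90ab1, had log2 fold changes of 0.05 (SE 0.13) and -0.01 (SE 0.095).

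Genes that follow feeding and the time of day were measured beside them. Of 14 feeding and fasting genes tested, 6 had an unadjusted p under 0.05 by edgeR, 2 higher and 4 lower in HFD-KO livers, beside 8.98% of all genes, and 0 passed the adjusted threshold. Igfbp1, a fasting-induced secreted protein that binds growth factors, had 48.3 and 68.9 CPM (HFD-WT) against 93.6 and 293 CPM (HFD-KO), a log2 fold change of 1.72 with an SE of 0.46 (edgeR adjusted p = 0.358), so that HFD-KO 2 had 3.13 times the level of HFD-KO 1. Without HFD-KO 2 its log2 fold change was 0.68 (SE 0.13). Irs2, an adaptor of the insulin receptor, had a log2 fold change of 0.68 (SE 0.11), and of 0.57 without HFD-KO 2. Elovl6, a fatty acid elongase, had one of -0.42 (SE 0.13). Of 19 clock genes, 6 had an unadjusted p under 0.05 and 0 passed the adjusted threshold by edgeR, 4 higher and 2 lower at the former, among them Nr1d1, a repressor of the clock, with 82.8 and 73.4 against 117 and 100.2 CPM. Ciart, Bhlhe40 and Cry1, also repressors of the clock, had log2 fold changes of -0.44, 0.33 and -0.45. HFD-KO 2 was the highest library for 4 of the 14 feeding and fasting genes and 6 of the 19 clock genes, beside 29.3% of all genes. The medians of HFD-KO 2 against HFD-KO 1 over these lists were -0.0067 and 0.044 on the log2 scale. The part of feeding state or time of collection in the values of the 10 genes was not tested.

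Markers of other cells that a liver sample can hold were measured beside them, and in bulk RNA fewer cells of a type and less RNA per cell cannot be told apart. The summed level of 18 plasma and B cell genes was 22.5 and 18.0 CPM (HFD-WT) against 134 and 23.6 CPM (HFD-KO). The library with the highest sum was HFD-KO 1, whereas Derl3 was highest in HFD-KO 2. Ighm, the heavy chain of IgM, had 7.77 and 7.85 against 73.9 and 7.45 CPM, Igkc, the kappa light chain, 6.35 and 3.78 against 32.7 and 5.90 CPM, and Jchain, which joins secreted antibodies, 1.49 and 1.05 against 8.21 and 1.72 CPM. Of the 12 genes tested, 1 was highest in HFD-KO 2, Igha, the heavy chain of IgA, with 0.552 and 0.691 against 1.48 and 3.39 CPM. Tnfrsf17 was at no more than 0.038 CPM in any library. Of 21 pancreatic acinar genes, 7 had 0 counts in every library, and their sum lay between 9.32 and 12.0 CPM, most of it from Cela1. Macrophage genes summed to 565 and 706 CPM (HFD-WT) against 479 and 435 CPM (HFD-KO), and stellate cell genes to 500 and 563 against 442 and 339 CPM, lowest in HFD-KO 2. In these lists 10 of 15 and 7 of 15 genes were lower in HFD-KO livers at an unadjusted p under 0.05 by edgeR. At that threshold 5 of the 12 plasma and B cell genes tested were higher, beside 4.25% of all genes. In either direction 8.98% of all genes tested passed it. Of the macrophage, stellate, plasma and B cell genes, 0 passed the adjusted threshold. Endothelial genes summed to between 518 and 586 CPM. The part of these cells in the values of the 10 genes was not tested.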

How the data were processed

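Liver RNA of 2 HFD-WT and 2 HFD-KO libraries was examined. According to the paper's methods, the authors used TRIzol, a directional library kit, paired-end sequencing on a DNBSEQ-G400RS, the trimming and alignment tool of MGI Tech and Partek Genomics Suite on GENCODE gene models. Their versions and the use of strand are not given in the sources used here. The methods name mm10 and the submitters' processing notes name mm10 and GRCm39. Of the 10 genes, 0 start where a GRCm38 annotation places them, so their positions were read as GRCm39. The deposited counts, whole and not normalized, were the values tested. The authors' TPM values, corrected for length, served only to compare levels between genes. The authors' RPKM values were not used, nor was the deposited CPM column, a score on an adjusted library size.

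Genes were filtered by filterByExpr of edgeR 4.0.16 under R 4.3.3 (12967 of 25655 remained), scaled by TMM and compared by the two-sided quasi-likelihood test, and p-values were adjusted by Benjamini-Hochberg over all genes that remained. An SE is the log2 fold change over the square root of F. The alternatives were DESeq2 1.42.0, other scalings and filters, a replicate block and leaving out each library. On simulated counts edgeR recovered 152 of 200 genes changed 2-fold among 12844 genes, with 23 false calls. Changes as small as the median of the 10 genes, 0.34 on the log2 scale, were not simulated. Groups and replicate numbers come from the sample titles. The labels do not say whether libraries are separate animals, so p-values measure the spread between libraries, which may be technical. The 10 genes and the lists were chosen with earlier results of these data known. The genes named were the 10, Adarb1, up to 4 genes per pathway list with the smallest unadjusted p under 0.05 or otherwise the 2 most abundant, the 2 most abundant of a marker list, and the 5 nearest to the mean profile; 1 gene that the rule names is left out here. Hsp90b1, Calr, Pdia3, Derl1, Derl2, Jchain, Igha and the sensors were named after their values were seen, and of the marker lists only genes beside a result are printed. Sequences were handled in Python 3.11.15 and plots drawn with matplotlib 3.10.9.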

Additional observations from a re-analysis of the deposited data

How the results depend on the processing

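Across 10 alternatives, all planned, the log2 fold changes of the 10 genes kept their direction and their side of the adjusted threshold in 85 of 100 values. They reversed in 7, namely Herpud1 with the library total alone (-0.027), Dnajb9 and Herpud1 without HFD-WT 1 (-0.05 and -0.14), and Hspa5, Creld2, Dnajb9 and Herpud1 without HFD-KO 2 (-0.068, -0.16, -0.17 and -0.22). Without HFD-KO 1 these 4 had 0.60, 0.97, 0.33 and 0.23, and 8 of the 10 genes then passed the adjusted threshold. Leaving out each library in turn, between 0 and 8 of the 10 genes passed the adjusted and between 0 and 10 the unadjusted threshold, between 4 and 10 had groups that did not overlap, beside between 63.5% and 76.1% of all genes, and their median log2 fold change lay between 0.021 and 0.58. Of the 116 other pathway genes, between 1 (without HFD-WT 1) and 23 (without HFD-KO 1) passed the unadjusted threshold, beside 6.76% and 16.4% of all genes, and 2 with DESeq2, beside 5.17%. At the unadjusted threshold 5 of the 10 genes passed with no filter on low counts. The cause of these shifts was not tested. With the replicate number as a block, 0 of the 10 genes passed the adjusted and 6 the unadjusted threshold by edgeR. The labels state no pairing, and deviations of same-numbered libraries had an r of -0.087 across 12967 genes. An r over all genes cannot show what a part of them shares, so whether same-numbered libraries belong together is unknown. With 34 to 175 counts in a library, Derl3 has the least precise value of the 10.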
